A study of Mus musculus with 11 samples.

Results

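The genes described here are genes of DNA replication and mitosis, read in regulatory T cells (Tregs) of visceral adipose tissue (VAT) and spleen. They were chosen by name, for their place in the cell cycle, from a list of 41. A row for 39 of the 41 was found in the table of 10992 genes, and Bub1 and Cdc6 had none. By role, 4 of the 39 supply nucleotides, 10 replicate DNA, 13 control mitosis, 8 build or move along the spindle, and 4 are chromatin or other proliferation genes. Each of the 39 reached an RPKM (reads normalised for gene length and for the size of the library) of at least 1 in at least 2 libraries, so that all were among the 10429 genes tested.

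Live CD3+ CD4+ Foxp3+ cells were sorted from male mice aged 25 weeks, and their polyadenylated RNA was sequenced in bulk. All mice carried Foxp3-YFPcre, a Cre recombinase made only where the Treg factor Foxp3 is made. Control mice were Srebf2-WT/WT (WT), and mice that lose Srebf2 in their Foxp3+ cells were Srebf2-flox/flox (KO). Srebf2 codes for SREBP2, which turns on genes of sterol synthesis and uptake. The libraries analysed were 3 of VAT WT, 3 of VAT KO, 2 of spleen WT and 2 of spleen KO. The labels do not say whether replicates are single or pooled mice, so p-values measure only the spread between these libraries. Values below are in the order of replicates 1, 2 and 3 for VAT and replicates 2 and 3 for spleen.

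Srebf2, the targeted gene, was at 16.6, 15.6 and 30.5 RPKM in VAT WT and at 0.263, 0.60 and 1.23 in VAT KO. In spleen it was at 10.5 and 23.2 RPKM in WT and at 2.59 and 1.59 in KO, so that every KO library lay below every WT library, with some Srebf2 reads left. Foxp3 was at 14.6 to 15.6 RPKM in VAT WT, 13.3 to 16.4 in VAT KO, 6.97 to 8.69 in spleen WT and 7.82 to 8.87 in spleen KO, and all 8 Treg identity genes looked for were in the table. The values of a library summed to between 185319 and 210779 RPKM over all genes, with 9551 to 9774 genes at 1 RPKM or more. Read depth is unknown, so no counting error can be given. Any difference below is one of RNA abundance in the sorted cells as a whole: fewer cycling cells and less RNA of these genes per cell cannot be told apart.

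A dividing cell makes its cell cycle proteins in waves. In late G1 and S phase, E2F factors drive the genes that make deoxynucleotides and the MCM2-7 helicase, which is loaded on replication origins and unwinds DNA. In G2 and mitosis a second wave follows, with cyclin B and CDK1, the Aurora and Polo kinases, the spindle motors and the anaphase-promoting complex that ends mitosis. In resting cells the DREAM complex holds many of these genes off, partly through a promoter element called the CHR. Tregs of adipose tissue are a long-lived resident population, while those of spleen are a mixture of resting and activated cells.

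The 5 stretches of promoter shown here were chosen to show genes described below: the 3 mitotic genes with the smallest p-values for KO against WT in spleen, none of them called, and Mcm6 and Kif23, which were called between tissues. Each is the 150 bases before the annotated transcription start, read 5′ to 3′ on the gene's own strand, from RefSeq (GRCm38.p6). Capitals mark matches to the motifs searched, which were the CHR core TTTGAA, the CCAAT box bound by NF-Y, and the E2F motifs TTCCCGC or TTCGCGC or TTGGCGC or TTGCCGC, each on both strands. Cdc20 lies at chr4:118437344-118437493 (minus strand), Ube2c at chr2:164769779-164769928 (plus), Ccnb1 at chr13:100786487-100786636 (minus), Mcm6 at chr1:128359706-128359855 (minus) and Kif23 at chr9:61946800-61946949 (minus), where the last bases lie within the annotated span of the gene.
Cdc20: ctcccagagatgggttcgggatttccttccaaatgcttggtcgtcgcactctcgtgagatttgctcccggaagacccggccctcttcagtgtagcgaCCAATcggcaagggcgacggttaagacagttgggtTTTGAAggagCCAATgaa
Ube2c: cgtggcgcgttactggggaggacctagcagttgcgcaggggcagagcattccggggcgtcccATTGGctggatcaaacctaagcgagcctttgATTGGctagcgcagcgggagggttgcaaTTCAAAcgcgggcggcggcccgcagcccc
Ccnb1: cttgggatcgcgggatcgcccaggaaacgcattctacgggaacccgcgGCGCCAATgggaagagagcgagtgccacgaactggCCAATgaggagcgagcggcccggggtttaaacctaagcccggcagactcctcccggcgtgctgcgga
Mcm6: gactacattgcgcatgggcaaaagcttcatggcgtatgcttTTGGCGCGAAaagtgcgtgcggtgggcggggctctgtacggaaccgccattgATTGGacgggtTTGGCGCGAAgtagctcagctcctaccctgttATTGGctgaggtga
Kif23: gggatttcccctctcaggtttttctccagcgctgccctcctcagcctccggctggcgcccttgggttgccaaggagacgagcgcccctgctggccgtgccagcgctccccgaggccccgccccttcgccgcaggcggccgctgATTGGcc
In the Cdc20 stretch a CHR core sits 18 to 13 bases before the start, between 2 CCAAT boxes. Ube2c holds a CHR core on the other strand, 29 to 24 bases before the start, below 2 CCAAT boxes in reverse. Ccnb1 has 2 CCAAT boxes and no CHR core within these bases, and its E2F match GCGCCAA shares bases with the first CCAAT box. Mcm6 carries the run TTGGCGCGAA at 2 places, each of which matches an E2F motif on both strands. Kif23 holds a CCAAT box in reverse, 7 to 3 bases before the start, and no other match in these bases.

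Over windows of 300 bases (250 before to 50 after the start), RefSeq entries were found for 31 of the 39 genes. Tpx2, Gins2, Ccne2, Mcm4, Ccna2, Stmn1, Kif20a and Aurkb were not matched. A CHR core was found in 13 of the 17 matched genes of mitotic control and the spindle, and in 2 of the 11 matched genes of nucleotide supply and replication. The E2F motifs showed the reverse pattern, with 2 of those 17 and 6 of those 11, among them 4 of the 5 matched MCM genes. CCAAT boxes were found in 27 of the 31 (87.1%). Over all 8874 genes of the table with a window, 14.5% held a CHR core, 20.0% an E2F motif and 43.1% a CCAAT box, and over all 27025 genes with a window the shares were 20.2%, 10.9% and 41.1%. A match describes these letters and not a bound site.

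Transcripts of these genes were present at low levels in every library. None of the 390 values was at 0. The name of the table marks its genes as detected, and 128 values over its 10992 genes were at 0. The lack of values at 0 thus says little about the 39 genes. The mean over all libraries was below 5 RPKM for 26 of the 39 genes. The median of the 39 means was 2.94 RPKM against 7.10 for all genes of the table. The DNA-bending chromatin protein gene Hmgb2 had the highest mean, 77.9 RPKM, and the kinetochore gene Cenpf lay near the lower end at 0.137 to 1.49 RPKM in single libraries. Summed over the 39 genes, the level was 338, 421 and 247 RPKM in VAT WT, 341, 371 and 323 in VAT KO, 362 and 430 in spleen WT, and 314 and 436 in spleen KO. These ranges overlapped in all 4 groups.

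Loss of Srebf2 was tested within each tissue on the log2(RPKM + 1) scale with limma, with p-values adjusted over all 10429 genes by Benjamini-Hochberg and called under 0.05. In VAT, 0 of the 39 genes were called and 0 had an unadjusted p under 0.05, where 0.422% of all genes were called (44 genes) and 767 had an unadjusted p under 0.05. The median difference of the 39 was 0.02, as was that of all genes, with 21 above 0 and 18 below. That median ran from -0.27 without VAT WT replicate 3 (10 above 0) to 0.20 without VAT WT replicate 2 (28 above 0), and was -0.14 (10 above 0) without VAT KO replicate 2 and 0.12 (29 above 0) without VAT KO replicate 3. In spleen 0 of the 39 were called as well, with 0.0% of all genes called, and 2 of the 39 and 873 of all genes had an unadjusted p under 0.05. The median difference in spleen was -0.04 against -0.03 for all genes, and its sign too depended on single libraries: it was -0.29 (11 above 0) without spleen KO replicate 3, -0.18 without WT replicate 2, 0.25 (29 above 0) without KO replicate 2 and 0.26 without WT replicate 3. The test is limited by groups of 3 and 2, and a p that misses the threshold does not show that levels were equal.

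Between tissues, 3 of the 39 genes were called in WT Tregs, where 26.1% of all genes were called. Kif23, a motor of cytokinesis, was higher in VAT, as were 10.7% of all genes, and the helicase genes Mcm6 and Mcm7 were lower, as were 15.4%. In KO Tregs 1 of the 39 was called, Kif23 again, where 14.6% of all genes were called, 7.65% higher and 6.94% lower. The share of the 39 genes called was thus below the share of all genes in both tissue comparisons. These shares are not like for like. The 39 genes had lower levels (median of means 2.94 RPKM against 7.10). They also had a wider spread within groups (median SD 0.435 against 0.251 on the log2 scale). A smaller share called therefore does not show that they differ less between tissues. The median difference of the 39 genes was -0.11 in WT, against -0.12 for all genes, and -0.24 in KO, against -0.09. With libraries scaled by median ratios, the WT medians became 0.04 for the 39 and 0.01 for all genes, the called members went from 1 higher and 2 lower to 1 and 1, and the share of higher genes among all calls went from 41% to 57.5%. The interaction of genotype and tissue called 0 of the 39 and 0.0% of all genes, with 1 of the 39 and 738 of all genes at an unadjusted p under 0.05.

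**Figure D1:**
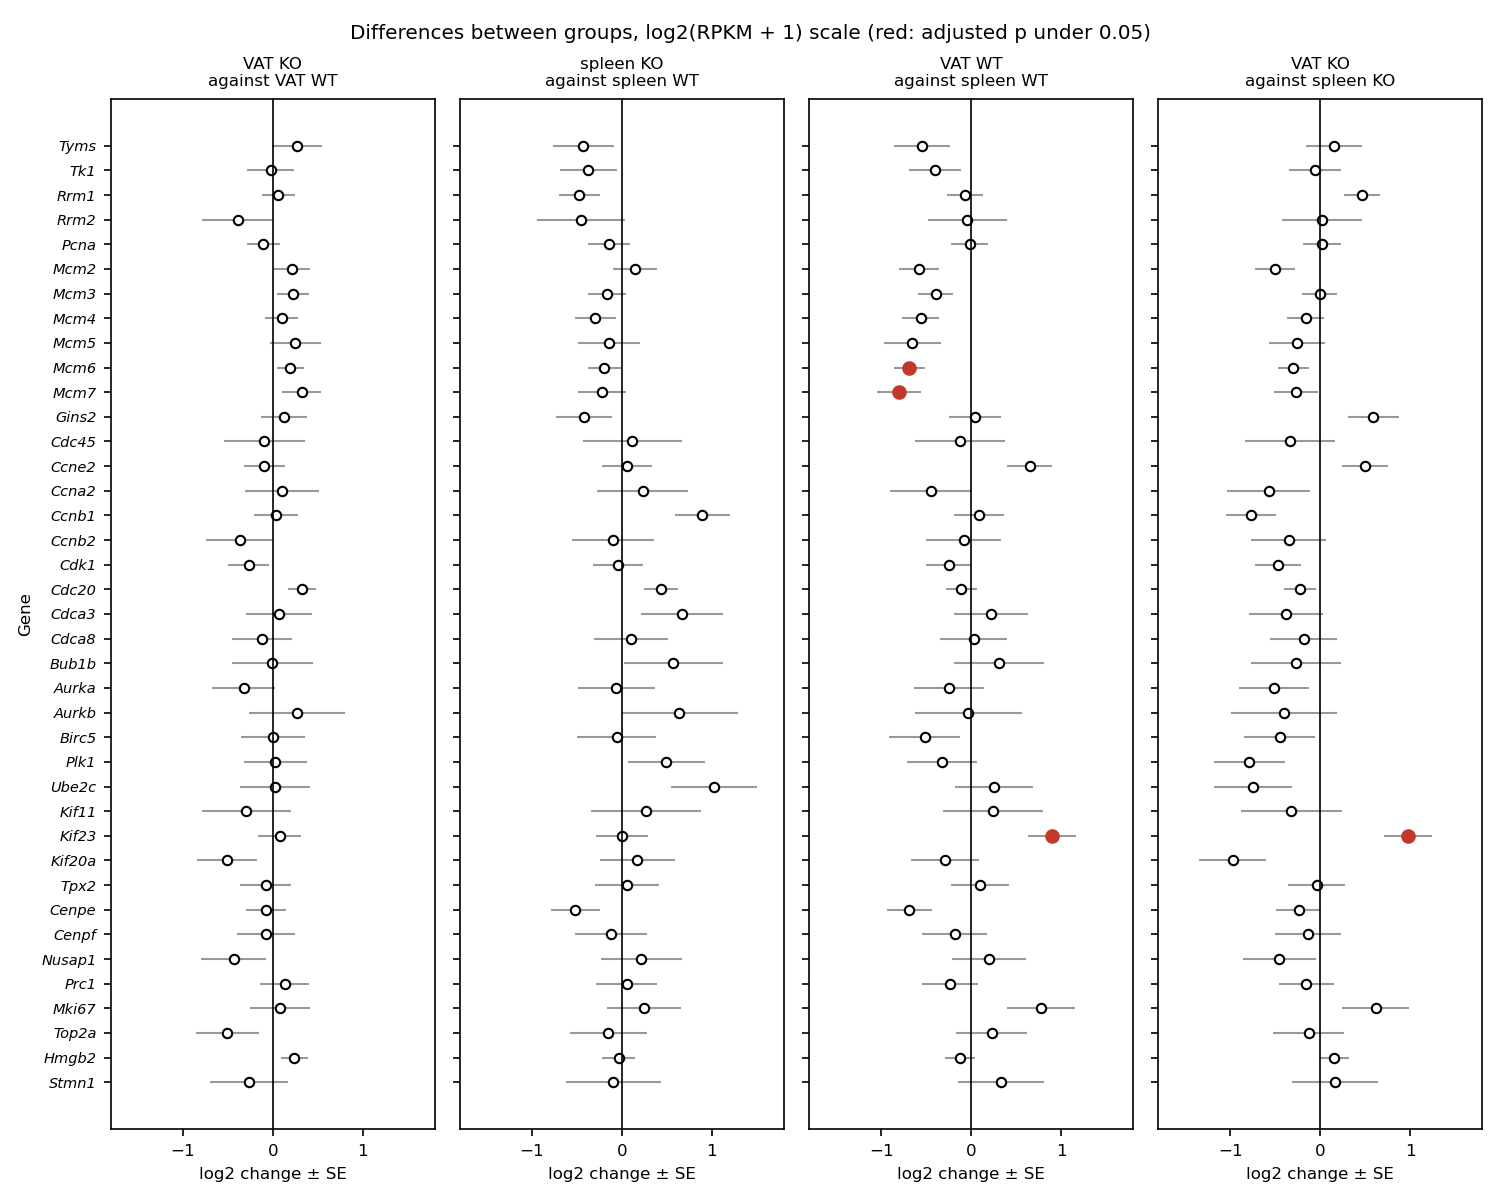
Difference of each of the 39 genes in 4 comparisons, as log2 change ± standard error on the log2(RPKM + 1) scale, in the order nucleotide supply, replication, mitotic control, spindle, and chromatin and other. Filled red points passed an adjusted p of 0.05 in limma: Mcm6, Mcm7 and Kif23 in WT between tissues and Kif23 in KO between tissues, with none in the comparisons of KO against WT.

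Of the genes that supply deoxynucleotides, ribonucleotide reductase (Rrm1 and Rrm2) makes deoxynucleotides from ribonucleotides, Tyms makes thymidylate and Tk1 salvages thymidine. Rrm1 was at 14.0, 16.9 and 11.2 RPKM in VAT WT, 13.9, 15.5 and 14.1 in VAT KO, 14.6 and 14.5 in spleen WT, and 8.44 and 12.3 in spleen KO. Both spleen KO libraries were below both spleen WT libraries, with a log2 difference of -0.47 ± 0.22 (SE) and an adjusted p of 0.596, while the VAT groups overlapped (0.06 ± 0.18). Rrm2, whose level follows S phase most closely of the 2 subunits, ranged from 7.24 to 24.5 RPKM within VAT WT alone, at 11.2, 24.5 and 7.24, so that this group spanned all 3 VAT KO values of 8.16, 8.94 and 11.5. In spleen it was at 10.8 and 15.8 RPKM in WT and at 5.36 and 15.6 in KO. Its difference was -0.39 ± 0.40 in VAT and -0.46 ± 0.48 in spleen. Tyms ran from 1.84 to 6.85 RPKM over the libraries and Tk1 from 1.71 to 3.94. In spleen all 4 genes were lower on average in KO (median -0.44), and Tk1 and Rrm1 were the 2 whose groups did not overlap. None of the 4 was called in any comparison, and without spleen KO replicate 2 the median was -0.19 with 1 of the 4 above 0.

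By median level the replication genes were the most abundant of the roles. Pcna encodes the sliding clamp of the replication polymerases and was at 31.0, 34.9 and 21.7 RPKM in VAT WT, 23.6, 26.3 and 30.3 in VAT KO, 29.7 and 28.4 in spleen WT, and 22.3 and 30.7 in spleen KO. All 4 groups overlapped, and no difference exceeded 0.14 in size on the log2 scale.

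Mcm6 had the smallest adjusted p of the 39 genes in any of these comparisons. It was at 32.3, 39.3 and 28.4 RPKM in VAT WT, 44.7, 34.93 and 34.96 in VAT KO, 52.7 and 55.1 in spleen WT, and 44.1 and 49.9 in spleen KO. Every VAT WT library lay below both spleen WT libraries, and Mcm6 fell by 0.69 ± 0.17 (SE) on the log2 scale in VAT against spleen of WT mice (adjusted p 0.0111). In KO mice VAT KO replicate 1 reached above a spleen KO library, and the difference was -0.30 ± 0.17 (adjusted p 0.281). Whether the tissues differ by another amount in KO was tested by the interaction, which was 0.39 ± 0.24 for Mcm6 (adjusted p 0.774).

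Mcm7, another of the 6 helicase subunits, was at 9.24, 12.5 and 7.06 RPKM in VAT WT, 12.0, 10.1 and 14.0 in VAT KO, 14.4 and 20.4 in spleen WT, and 16.6 and 12.8 in spleen KO. The WT tissues did not overlap, and Mcm7 fell by 0.80 ± 0.24 in VAT (adjusted p 0.0290). That call rests on single libraries: with VAT WT replicate 1 left out the adjusted p was 0.0687, with VAT WT replicate 3 left out 0.104 and with spleen WT replicate 3 left out 0.133, within a range of 0.0138 to 0.133 over 18 alternatives. Mcm6 was called in all 18 of the same alternatives, with adjusted p from 0.00772 to 0.0466. The span of Mcm7 shares 91 bases with that of Ap4m1, a gene at 0.891 to 2.19 RPKM.

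The other helicase subunits lay on the same side. In WT mice the log2 difference of VAT against spleen was -0.58 ± 0.23 for Mcm2 (adjusted p 0.0770), -0.39 ± 0.19 for Mcm3 (0.157), -0.56 ± 0.21 for Mcm4 (0.0628) and -0.65 ± 0.31 for Mcm5 (0.144), none of which was called. Mcm2 was at 12.0, 17.8 and 12.8 RPKM in VAT WT, 15.0, 17.5 and 16.9 in VAT KO, 16.5 and 27.6 in spleen WT, and 21.9 and 25.6 in spleen KO, so that spleen WT replicate 2 lay below the highest VAT WT library. All 6 differences stayed below 0 under every alternative tried, scaling by median ratios included. Their number of calls depended on the libraries: all 6 were called without spleen WT replicate 2, Mcm2 and Mcm5 joined Mcm6 and Mcm7 without VAT WT replicate 2, and the median of the 6 moved from -0.61 to -0.23 without spleen WT replicate 3. In KO mice none of the 6 was called, with differences from -0.50 (Mcm2) to -0.00 (Mcm3). Summed, the 6 genes were at 104, 129 and 91.9 RPKM in VAT WT, 130, 122 and 119 in VAT KO, 141 and 199 in spleen WT, and 140 and 157 in spleen KO. Each spleen sum was above each VAT sum.

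**Figure D2:**
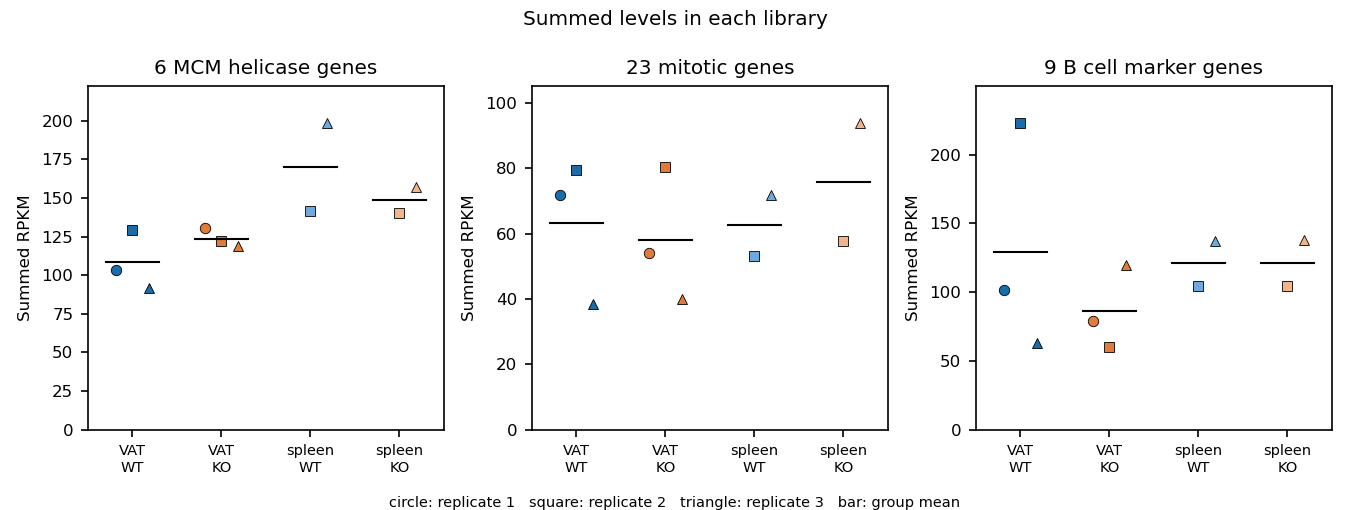
Summed RPKM in each library of the 6 MCM helicase genes, of 23 mitotic genes (mitotic control, spindle, Mki67 and Top2a) and of 9 B cell marker genes, with bars at the group means and axes from 0. The helicase sums of spleen (140 to 199 RPKM) lie above those of VAT (91.9 to 130), while the mitotic sums of the 4 groups overlap and are lowest in VAT WT replicate 3 (38.3) and VAT KO replicate 3 (39.9).

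The remaining replication genes were scarce. Cdc45, part of the active helicase with MCM and GINS, ran from 0.823 to 5.96 RPKM, and Gins2 from 0.545 to 2.32. Ccne2, a cyclin E that starts S phase, was at 0.851, 1.47 and 1.04 RPKM in VAT WT, 0.871, 0.985 and 1.05 in VAT KO, 0.0840 and 0.657 in spleen WT, and 0.474 and 0.316 in spleen KO. Each VAT library was above each spleen library, and the log2 difference was 0.65 ± 0.25 in WT (adjusted p 0.0758) and 0.50 ± 0.25 in KO (adjusted p 0.221). Ccne2 shares 5622 bases of its span with Ints8, and since the library kit does not mark the strand, reads from the shared stretch cannot be assigned to either.

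Among the genes of mitotic control, Cdc20 had the smallest p of the 39 for KO against WT in VAT. CDC20 activates the anaphase-promoting complex at the end of metaphase. Cdc20 was at 5.89, 5.82 and 5.94 RPKM in VAT WT and at 8.36, 7.40 and 7.13 in VAT KO, and at 6.39 and 6.47 in spleen WT and 9.07 and 9.04 in spleen KO. All 5 KO libraries were above all 5 WT libraries. Of the 39 genes Cdc20 alone had this order in either direction, which was noticed after its values were seen, and 0.278% of all genes tested showed it with KO higher. The difference was 0.32 ± 0.15 in VAT (adjusted p 0.713) and 0.44 ± 0.19 in spleen (adjusted p 0.594), and it was called in neither. Averaged over both tissues, a comparison added after the order was seen, it was 0.38 ± 0.12 with an unadjusted p of 0.00884 and an adjusted p of 0.454, in a comparison that called 8 of 10429 genes. Cdc20 shares 53 bases with Elovl1, which was at 16.3 to 25.0 RPKM and overlapped between genotypes in both tissues.

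Cdc20 also varied less between libraries of a group than any other of the 39. Its SD within groups was 0.062 on the log2 scale, against a median of 0.435 for the 39 genes and 0.251 for all genes, and its values hardly followed the other cell cycle genes from library to library (Pearson r of -0.02 to their mean, over 10 libraries with group means removed).

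Ccnb1 and Ube2c differed most between genotypes in spleen. Ccnb1 encodes cyclin B1, the partner of CDK1 at entry into mitosis, and was at 0.741 and 1.42 RPKM in spleen WT and 2.10 and 3.67 in spleen KO, while VAT WT was at 1.28, 0.864 and 1.42 and VAT KO at 1.60, 1.40 and 0.774. Both spleen KO libraries stood above the other 8. The difference in spleen was 0.89 ± 0.30 (adjusted p 0.582), that in VAT was 0.03 ± 0.25, and the interaction was -0.86 ± 0.39 with an unadjusted p of 0.0494 and an adjusted p of 0.699. Ube2c encodes the ubiquitin-conjugating enzyme of the anaphase-promoting complex. It was at 1.49 and 2.87 RPKM in spleen WT and 5.20 and 5.42 in spleen KO, and at 6.42, 2.32 and 1.06 in VAT WT and 1.77, 3.95 and 2.88 in VAT KO. The spleen groups did not overlap (1.02 ± 0.48, adjusted p 0.596), but VAT WT replicate 1 held the highest value of all.

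Cdk1, the mitotic kinase itself, was at 1.47, 2.43 and 1.10 RPKM in VAT WT, 1.01, 1.29 and 1.23 in VAT KO, 2.23 and 1.99 in spleen WT, and 1.65 and 2.40 in spleen KO. The genotypes overlapped in both tissues, at -0.27 ± 0.23 in VAT and -0.05 ± 0.28 in spleen, so Cdk1 did not share the order of its partner Ccnb1. The kinase genes Aurka, Aurkb and Plk1, the checkpoint gene Bub1b, the survivin gene Birc5 and the cyclin genes Ccna2 and Ccnb2 overlapped between genotypes in both tissues. Aurkb, the kinase of the chromosomal passenger complex, was the most variable of the 39 within groups (SD 0.88 on the log2 scale), from 0.196 to 3.03 RPKM within VAT WT.

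As a group, 9 of the 13 mitotic control genes were above 0 in spleen KO against WT, with a median of 0.44, and 8 of 13 in VAT, with a median of 0.02. Of all genes, 46.8% were above 0 in spleen and 54.5% in VAT. Between tissues in KO mice all 13 were lower in VAT (median -0.45, with none called), against 8 of 13 in WT mice (median -0.08). Of all 10429 genes, 6114 were lower in VAT in KO mice and 6154 in WT mice. The 13 genes moved together within groups (mean pairwise Pearson r 0.413), so they are not independent counts. These counts depend on single libraries. In spleen they became 7 of 13 (median 0.14) without KO replicate 3, the library with the highest mitotic sum (93.9 RPKM), and 8 of 13 (0.10) without WT replicate 2, but 13 of 13 (0.69) without KO replicate 2. In VAT they became 2 of 13 (median -0.40) without WT replicate 3, 1 of 13 (-0.18) without KO replicate 2 and 11 of 13 (0.12) without KO replicate 3. Between tissues in KO, 10 of 13 were below 0 with a median of -0.23 without spleen KO replicate 3, and the median of all 39 moved from -0.24 to 0.06. Between tissues in WT, the mitotic median was 0.22 without spleen WT replicate 3 and 0.05 with median-ratio scaling.

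In the interaction 12 of the 13 mitotic control genes were below 0, while 8 of the 10 replication genes and all 4 nucleotide genes were above 0, and none of these was called. Of all genes, 55.1% were above 0. With single libraries left out, 8 to 13 of the mitotic control genes were below 0, and 6 to 10 of the replication genes and 3 to 4 of the nucleotide genes above 0.

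Where groups of libraries did not overlap was counted for the 39 genes beside all genes. For KO against WT in VAT, Cdc20 and Hmgb2 were higher in every KO library and no gene lower, where 8.97% of all genes were higher and 6.16% lower (15.1% in all). In spleen Ccnb1, Cdc20, Cdca3 and Ube2c were higher and Tk1, Rrm1, Mcm6, Gins2 and Cenpe lower, where 15.0% and 17.5% of all genes were. Of the 39 genes, 9 thus separated the spleen genotypes, a smaller share than the 32.6% of all genes that did. The lower levels and wider spread of the 39 genes limit this comparison of shares too. Between tissues 2 of the 39 were higher and 5 lower in VAT of WT mice (background 18.1% and 31.0%, 49.1% in all), and 4 higher and 7 lower in VAT of KO mice (background 20.0% and 30.4%, 50.4% in all).

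Of the 8 spindle genes, Kif23 was the one called. KIF23 is a kinesin of the centralspindlin complex that bundles microtubules at the cleavage furrow. Kif23 was at 2.87, 2.13 and 2.36 RPKM in VAT WT, 2.90, 3.05 and 2.02 in VAT KO, 0.420 and 1.38 in spleen WT, and 0.730 and 0.952 in spleen KO. All 6 VAT libraries were above all 4 spleen libraries. Kif23 rose by 0.90 ± 0.27 in VAT against spleen of WT mice (adjusted p 0.0255) and by 0.98 ± 0.27 in KO mice (adjusted p 0.0259), and the genotypes did not separate in either tissue (0.08 ± 0.24 and -0.00 ± 0.29).

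Both calls of Kif23 depend on single libraries. In WT the adjusted p was 0.0790 with VAT WT replicate 1 left out, 0.0603 with VAT WT replicate 3 left out, and 0.232 (difference 0.53) with spleen WT replicate 2 left out, within a range of 0.00465 to 0.232 over 17 alternatives. In KO it was 0.0859 and 0.0835 without VAT KO replicates 1 and 2, and 0.165 and 0.0994 without spleen KO replicates 2 and 3, within a range of 0.00883 to 0.165. The direction was the same in all of them.

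The other spindle genes did not share this pattern. Kif20a, a second motor of cytokinesis, was at 1.45, 2.08 and 0.832 RPKM in VAT WT, 1.54, 0.437 and 0.312 in VAT KO, 1.33 and 2.71 in spleen WT, and 1.38 and 3.60 in spleen KO. It was lower on average in VAT than in spleen in both genotypes (-0.29 ± 0.38 in WT and -0.97 ± 0.38 in KO, adjusted p 0.602 and 0.110), with overlapping groups. The span of Kif20a overlaps Brd8 (12.2 to 22.2 RPKM) and, by 4930 bases, Cdc23 (6.99 to 16.3 RPKM). Reads from the shared stretches cannot be assigned to either gene. Cdc23 was itself at 7.24 to 8.19 RPKM in VAT KO and at 16.3 and 10.8 in spleen KO. Prc1, which works with centralspindlin at the midzone, differed between tissues by -0.23 ± 0.31 in WT and -0.15 ± 0.31 in KO. The span of Prc1 shares 21669 bases with that of Rccd1, so reads from the shared stretch cannot be assigned to either. Rccd1 was at 1.40 to 2.13 RPKM over the VAT libraries and 2.70 to 4.12 over those of spleen. Cenpe, a kinetochore motor, was at 0.652 to 0.935 RPKM in all 6 VAT libraries and 0.842 to 2.69 in the 4 spleen libraries, with a difference of -0.69 ± 0.25 in WT (adjusted p 0.0594). The regulators and motors Tpx2, Kif11, Cenpf and Nusap1 were between 0.137 and 5.24 RPKM, and their groups overlapped in all 4 comparisons.

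**Figure D3:**
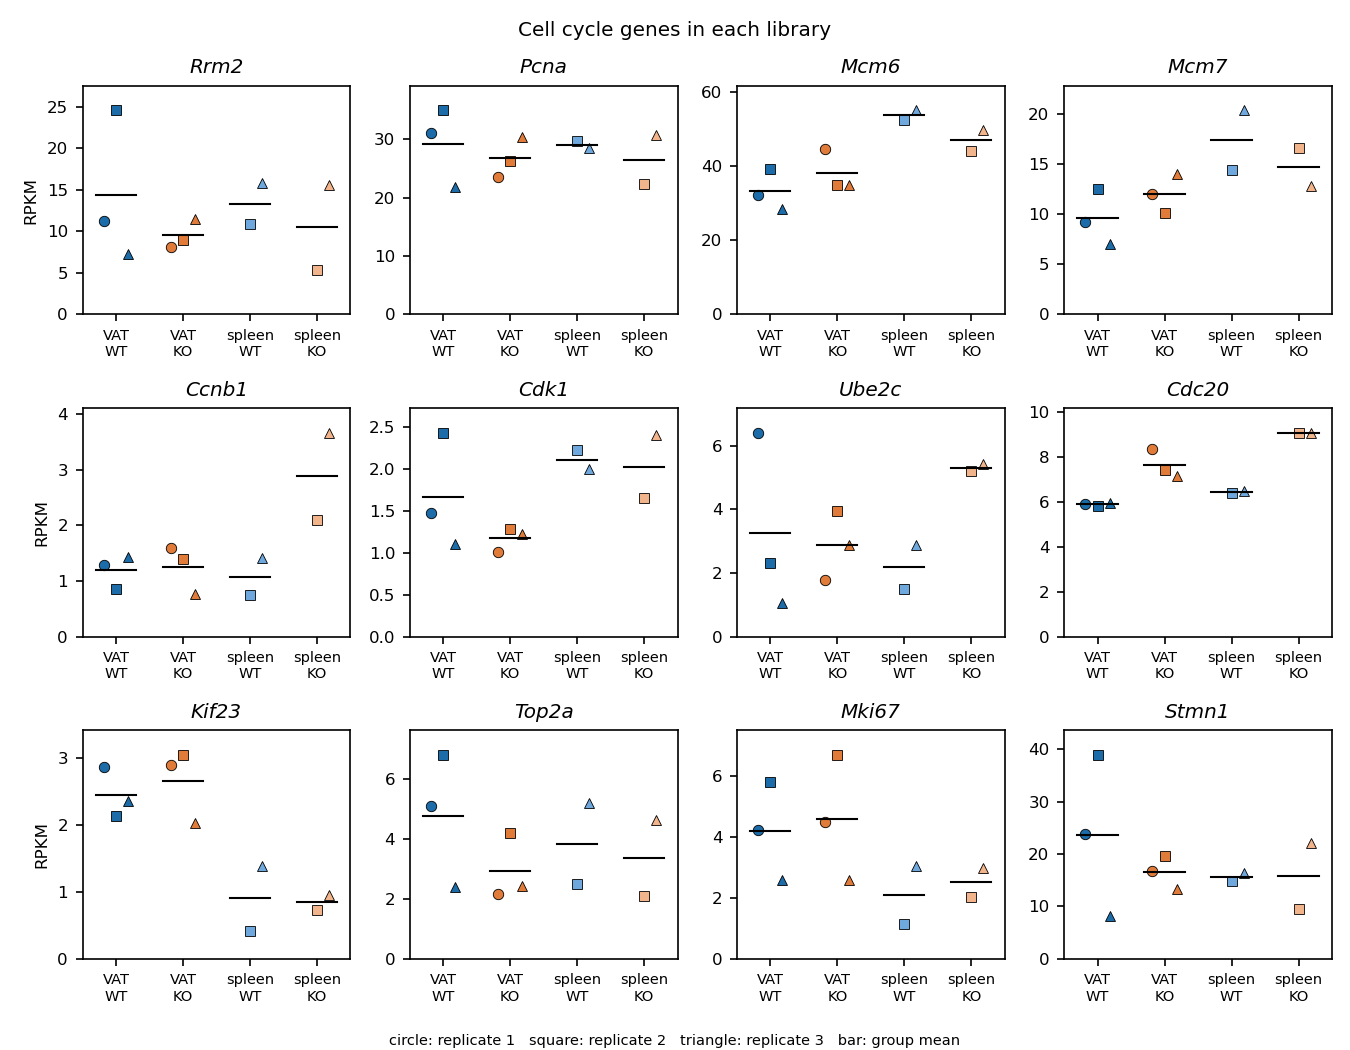
RPKM in each library of 12 of the genes, chosen to cover each role, with bars at the group means, symbols for the replicate number and axes from 0. Kif23 separates the tissues, Mcm6 separates the WT tissues, Cdc20 is higher in each KO library than in each WT library, and Rrm2, Top2a, Mki67 and Stmn1 spread widely within VAT WT.

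Mki67 encodes the Ki-67 protein that coats mitotic chromosomes and is the usual marker of cycling cells. It was at 4.22, 5.81 and 2.60 RPKM in VAT WT, 4.49, 6.71 and 2.59 in VAT KO, 1.13 and 3.06 in spleen WT, and 2.04 and 2.99 in spleen KO. The genotypes overlapped in both tissues (0.08 ± 0.33 in VAT and 0.24 ± 0.41 in spleen). The tissues overlapped too, at 0.78 ± 0.37 in WT (adjusted p 0.143) and 0.62 ± 0.37 in KO (adjusted p 0.315), although Mki67 was called in WT without spleen WT replicate 3 (1.24, adjusted p 0.0380, range over alternatives up to 0.668).

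Top2a, the topoisomerase that untangles replicated chromosomes, was at 5.11, 6.81 and 2.39 RPKM in VAT WT, 2.17, 4.19 and 2.42 in VAT KO, 2.49 and 5.19 in spleen WT, and 2.11 and 4.63 in spleen KO. Its difference between genotypes in VAT was -0.51 ± 0.35 with overlapping groups. Stmn1, which destabilises microtubules, had both its highest and its lowest value within VAT WT, at 23.9, 38.9 and 8.18 RPKM, against 16.7, 19.7 and 13.3 in VAT KO, 14.9 and 16.3 in spleen WT, and 9.42 and 22.1 in spleen KO. No pair of groups separated. Hmgb2 was at 72.5, 81.2 and 62.1 RPKM in VAT WT and 83.2, 85.4 and 85.0 in VAT KO, which did not overlap (0.24 ± 0.15, adjusted p 0.899), and at 84.0 and 72.0 in spleen WT and 63.5 and 90.3 in spleen KO.

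These genes moved together from library to library within a group. After each group's mean was removed, the mean Pearson r over pairs of the 39 genes was 0.441 across the 10 libraries, against 0.005 over all tested genes, and 37 of the 39 genes had an r above 0 to the mean of the others. By role it was 0.715 for the 4 nucleotide genes, 0.581 for the 6 helicase genes and 0.413 for the 13 mitotic control genes. Top2a (0.961), Tpx2 (0.952) and Stmn1 (0.931) followed the mean of the others most closely, and Cdc20 (-0.02) and Cenpe (-0.21) were the 2 genes without a positive r. All genes of a library share its cells, depth and composition, so these values describe the libraries and carry no test.

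An order of libraries was shared by many of the genes. In VAT WT, replicate 2 was the highest for 27 of the 39 genes and replicate 3 the lowest for 33. Of all genes, 37.4% had replicate 2 highest and 38.8% had replicate 3 lowest. In VAT KO, replicate 2 was highest for 25 and replicate 3 lowest for 21, against 30.6% and 31.3% of all genes. The replication genes did not share this order: replicate 2 was the highest for 3 and the lowest for 4 of those 10. In spleen, WT replicate 3 was above WT replicate 2 for 28 genes and KO replicate 3 above KO replicate 2 for 35, against 51.8% and 48.4% of all genes.

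**Figure D4:**
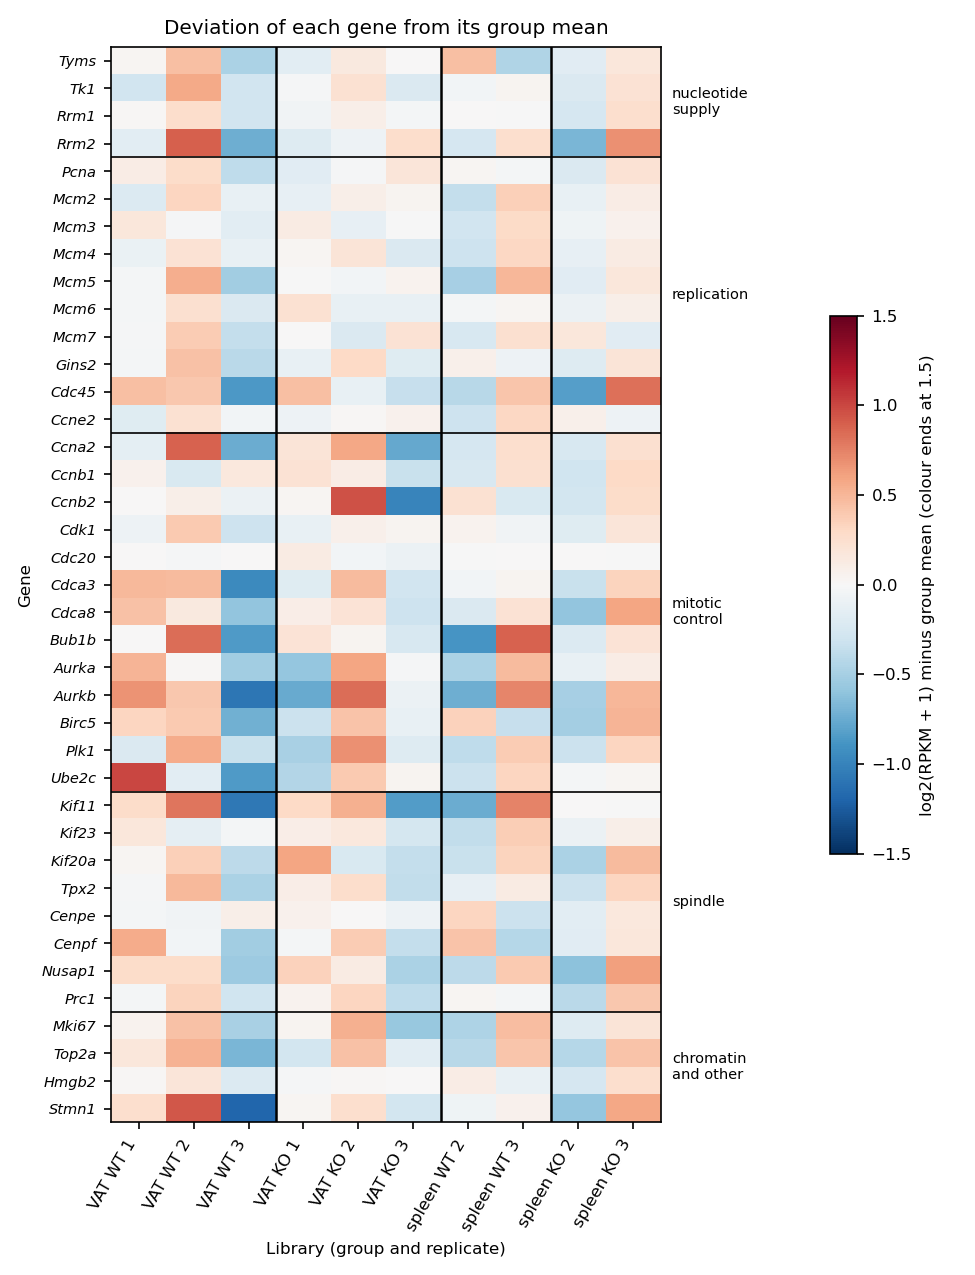
Deviation of each of the 39 genes (rows, by role) from the mean of its group in each of the 10 libraries (columns), in log2(RPKM + 1) units, with red above and blue below the group mean. The column of VAT WT replicate 3 is blue for most genes and those of VAT WT replicate 2 and spleen KO replicate 3 are red, while the row of Cdc20 is nearly blank.

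Markers of other cell types that a sort can hold were set beside this order. Of 11 B cell markers 9 were in the table, with none at 0. Their summed level was 63.3 to 223 RPKM in VAT WT, 60.3 to 120 in VAT KO, 105 to 137 in spleen WT and 105 to 138 in spleen KO. In VAT WT, B cell markers and cell cycle genes were both highest in replicate 2 and lowest in replicate 3, and in both spleen groups both were higher in replicate 3. In VAT KO the order was different, with the markers lowest in replicate 2 (60.3 RPKM), where the cell cycle genes were mostly highest. Myeloid markers (4 of 16 in the table, mainly Ctss) summed to 12.3 to 15.2 RPKM in VAT WT and 20.2 to 45.6 in VAT KO. In spleen they summed to 179 to 240 RPKM in WT and 183 to 186 in KO. These sums, carried mainly by Ctss, thus moved with the tissue comparisons, and within VAT with genotype. The other markers did not all do so within VAT. Fcer1g (0.417 to 1.01 RPKM in WT and 0.160 to 3.95 in KO) and Adgre1 (0.039 to 0.347 and 0.030 to 0.366) overlapped between genotypes. Csf1r did not overlap, at 0.034 to 0.087 RPKM in VAT WT and 0.117 to 0.144 in VAT KO. Ctss was at 11.8 to 13.9 RPKM in VAT WT and 19.8 to 44.9 in VAT KO. It was called higher in VAT KO by limma (1.31, adjusted p 0.0449), as were 0.307% of all genes. The 4 of 10 germinal centre and plasma cell markers in the table summed to 51.7 to 59.4 RPKM in VAT WT, 54.1 to 60.5 in VAT KO, 62.7 to 82.5 in spleen WT and 64.8 to 75.4 in spleen KO. Cd8a and Cd8b1, the 2 of 8 markers of CD8, NK and gamma-delta cells with a row, summed to 4.93 to 20.0 RPKM over the libraries. For stroma and endothelium, 2 of 10 markers had a row, with sums of 4.80 to 12.1 RPKM over the VAT libraries and 17.0 to 35.1 over those of spleen. The sums were mainly of Pecam1 (4.39 to 34.9 RPKM), with Vwf at 0.044 to 1.08. None of the 9 erythroid markers had a row. The part of any of these cells in the results was not tested.

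Genes outside the list with the most similar pattern were found by the r of their deviations to the mean of the 39 over the 10 libraries. The 8 highest were Hpf1 (0.947), Mxd3 (0.946), Rab28 (0.939), Spag5 (0.935), Asf1b (0.933), Poc1b (0.933), H2-T10 (0.929) and Hat1 (0.927). Asf1b, a histone chaperone, was at 2.48 to 9.03 RPKM in VAT WT and 5.22 to 10.3 in VAT KO, highest in replicate 2 in both. The 8 genes were picked for this r among all tested genes outside the lists. Their order of libraries therefore follows from the choice and carries no test.

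Other genes of the cell cycle were read from lists by function. For KO against WT, 0 genes of the 6 lists were called in VAT or in spleen, and 0 in the interaction. At an unadjusted p under 0.05 there were 4 of their tested genes in VAT, 12 in spleen and 6 in the interaction, among which the further replication genes in spleen numbered 8 of 39 with 24 of 39 below 0 (median -0.18).

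The largest differences between tissues in these lists were of inhibitors of the cycle. Of 9 tested CDK inhibitors and antiproliferative genes, 5 were higher in VAT of WT mice (Cdkn1a, Cdkn2c, Btg2, Tob1 and Tob2) and 1 lower (Btg1), where 10.7% of all genes were higher and 15.4% lower. In KO mice 4 were higher and 0 lower, where 7.65% and 6.94% of all genes were. The median log2 difference was 1.26 in both genotypes. Cdkn1a encodes p21, which blocks CDK2 and binds PCNA. It was at 49.9, 23.6 and 37.2 RPKM in VAT WT and 31.3, 25.7 and 30.3 in VAT KO, and at 0.180 and 0.739 in spleen WT and 0.374 and 0.410 in spleen KO. Every VAT library was far above every spleen library, and Cdkn1a rose by 4.66 ± 0.28 in WT (adjusted p 1.4e-07) and by 4.43 ± 0.28 in KO (adjusted p 2.9e-07). Since the spleen values lie below 1 RPKM, the size depends on the pseudocount, and it ran over the alternatives from 2.89 to 6.19 in WT and from 2.66 to 5.89 in KO.

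Btg2, an antiproliferative gene that acts on mRNA deadenylation, was at 605, 544 and 593 RPKM in VAT WT, 510, 530 and 509 in VAT KO, 98.8 and 96.1 in spleen WT, and 99.98 and 124 in spleen KO. It rose by 2.56 ± 0.13 in WT and by 2.20 ± 0.13 in KO. Tob2, of the same family, ran from 55.1 to 95.9 RPKM over the VAT libraries and from 21.7 to 29.5 over those of spleen, and rose by 1.49 ± 0.22 in WT and by 1.68 ± 0.22 in KO. All 3 genes were called in both genotypes under all 18 alternatives. Btg1 went the other way, at -0.47 ± 0.15 in WT (adjusted p 0.0345) and -0.36 ± 0.15 in KO (adjusted p 0.126), but its call in WT was lost in 7 of 18 alternatives, among them median-ratio scaling (-0.31, adjusted p 0.169) and the fit of the compared groups only (adjusted p 0.120). Cdkn1b, which encodes p27, was at 6.52 to 10.2 RPKM over all libraries and was not called.

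**Figure D5:**
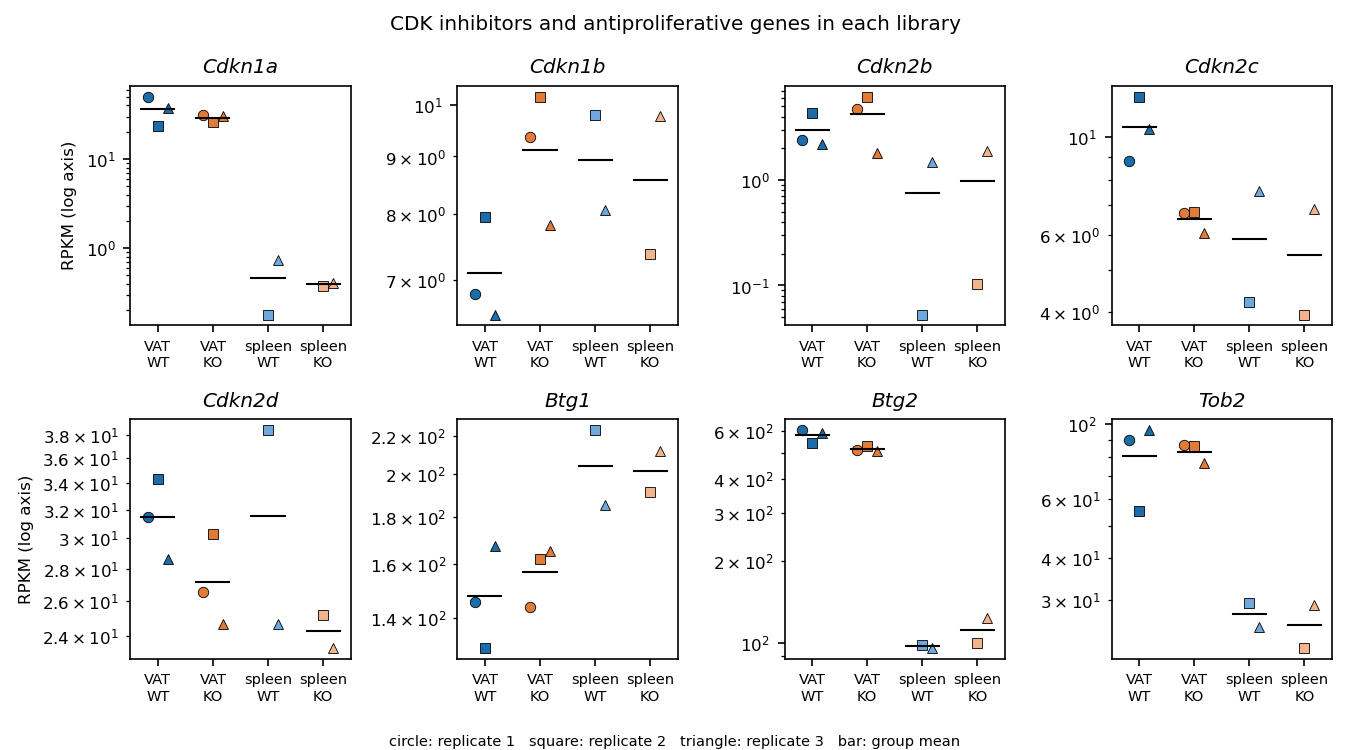
RPKM in each library of 8 CDK inhibitors and antiproliferative genes on log axes, with bars at the group means and symbols for the replicate number. Cdkn1a, Btg2 and Tob2 are higher in every VAT library than in every spleen library, in both genotypes, Btg1 is lower in VAT, and Cdkn1b and Cdkn2d overlap between tissues.

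The other lists were mixed between tissues, and many of their calls were near the threshold. As for the members, their counts stand beside 26.1% of all genes called in WT and 14.6% in KO. The count of alternatives that lost a call is given beside it.

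Of 10 tested G1 cyclins and kinases, 4 were called in WT. Cdk6 (1.13 ± 0.23, kept in all 17 alternatives) and Ccnd2 (0.89 ± 0.20, lost in 1 of 18, at 0.56 and adjusted p 0.0522 without spleen WT replicate 2) were higher in VAT. Cdk4 (-0.62 ± 0.19) was lower and lost its call in 7 of 18, with adjusted p up to 0.119. Ccnh (-0.86 ± 0.27) was lower and lost its call in 6 of 18, at -0.42 (adjusted p 0.304) without spleen WT replicate 2. Cdk6 alone was called in KO (0.93 ± 0.23), a call lost in 3 of 17. It was lost under the replicate block (adjusted p 0.0565), without VAT KO replicate 1 (0.88, adjusted p 0.0622) and without spleen KO replicate 3 (0.62).

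Of 18 RB, E2F and DREAM genes, Rbl2, which encodes the p130 pocket protein of DREAM, rose by 1.21 ± 0.18 in WT under all 18 alternatives. It rose by 0.72 ± 0.18 in KO, a call lost in 4 of 18 (adjusted p 0.0548 under the replicate block and 0.148 without spleen KO replicate 2). Tfdp1 was lower in WT under all 18 alternatives (-0.69), while the lower call of E2f2 in WT (-0.73) was lost in 11 of 18, with adjusted p up to 0.131.

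The condensin gene Smc4 was at 21.6 to 24.1 RPKM in VAT WT, 28.2 to 41.9 in VAT KO and 75.4 to 86.6 in spleen, and fell by 1.75 ± 0.17 in WT and by 1.27 ± 0.17 in KO, under all 18 alternatives in both. Among 35 other mitosis genes, 3 were called in WT, a smaller share than of all genes: Smc4 and Bub3 lower and Cdc25b higher. The call of Bub3 (-0.57) was lost in 7 of 18, with adjusted p up to 0.163. Of 39 other replication genes, Cdt1 was higher and Rpa2 lower in WT, and Orc1 and Slbp were higher in KO, again smaller shares than of all genes. None of these 4 calls was stable: they were lost in 11, 5, 8 and 9 alternatives, each of them under the replicate block (adjusted p 0.0519, 0.0600, 0.0734 and 0.0828). As for the members, a smaller share called does not show a smaller difference between tissues. In WT, 32 of the 39 were below 0 (median -0.33), against 6154 of all 10429 genes (median -0.12). Without overlap, 17 of the 39 were lower in VAT of WT mice, against 31.0% of all genes. In KO, 22 of the 39 were below 0 (median -0.05, against -0.09 for all genes).

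Of 12 genes of the damage checkpoint, Wee1, which holds CDK1 inactive, rose by 1.87 ± 0.34 in WT under all 18 alternatives and by 1.40 ± 0.34 in KO, a call lost in 3 of 18 (adjusted p up to 0.117). Trp53, which encodes p53, fell by 0.79 ± 0.17 in WT under all 18, and its fall of 0.57 ± 0.17 in KO lost its call in 8 of 18 (adjusted p 0.0625 with quantile normalization, and up to 0.196). Chek2 was lower in WT (-1.22), a call lost in 5 of 17, at -0.61 (adjusted p 0.333) without spleen WT replicate 2.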

How the data were processed

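RNA of sorted Tregs was made into cDNA with a SMART-seq kit and into libraries with Nextera XT, which does not mark the strand, per the labels' protocols. STAR and the mm10 build are named in the submitters' processing notes. The authors deposited 1 table of RPKM values, whose name marks its genes as detected. Its read counter and gene models are not given in the sources used. Low values gave no step of a single read, so depth is unknown. Of 11 labelled samples, 10 have a matching column. Spleen KO replicate 1 was not analysed here, and 1 further column, whose name fits none of the labels, was not used. Entrez identifiers of 10987 genes were found in GRCm38.p6, and 15 symbols changed to dates were restored.

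Values were fitted as log2(RPKM + 1), with a pseudocount of 1, for the 10429 genes that reached 1 RPKM in 2 or more samples. limma 3.58.1 (R 4.3.3) fitted 4 group means with a mean-variance trend (6 residual and 6.44 prior degrees of freedom). The design had assumed all labelled samples. Tests were two-sided, errors of differences are standard errors, and the fit was tested on simulated data. The members, gene lists, tests and alternatives were chosen with earlier results of these data known. The rule for named genes took the called members of each comparison (up to 6 in each direction), or, with no call, the 4 of smallest p, 9 members in every case, and up to 3 called genes in each direction of each other list. Further genes are given by range. Alternatives were other pseudocounts, filters and scalings, a fit on the compared groups only, the replicate block, and each library left out. Motifs were searched with Python 3.11.15.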

Additional observations from a re-analysis of the deposited data

How the results depend on the processing

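The counts of cell cycle genes called for KO against WT in VAT, for KO against WT in spleen and for the interaction were 0 under all alternatives, left-out libraries included. Between tissues in WT, the 3 calls became 1 with the replicate block and 1 when only the compared groups were fitted, and ran from 1 to 6 over left-out libraries. Between tissues in KO, the 1 call became 0 with a mean of at least 5 RPKM, where Kif23 was not tested, 0 with the replicate block, and 2 with only the compared groups, and ran from 0 to 1 over left-out libraries. With median-ratio scaling Mcm7 lost its call (adjusted p 0.0617). What else moved these counts was not tested.

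Same-numbered WT and KO libraries of VAT did not deviate together (r of -0.09, 0.05 and -0.15 across genes). In spleen this r was -0.06, but with groups of 2 every pair gives an r of the same size, so it cannot show pairing. VAT and spleen libraries of the same number were not compared in this way, so a pairing of the tissues was not checked. The main fit did not take the replicate numbers as pairs. Under the replicate block Mcm7 (adjusted p 0.0715) and Kif23 (0.0698 in WT and 0.0791 in KO) lost their calls. Over all genes, 44 calls for KO against WT in VAT became 20 with a pseudocount of 5 and 2 to 59 over left-out libraries, 0 calls in spleen became 1403 without spleen WT replicate 3, and 0 in the interaction became 521 without it, none of them in the 39 genes. The 2723 calls between tissues in WT became 1757 with the compared groups only. Over 105 named results and 1849 alternatives, 1639 kept their side and direction, 132 lost and 8 gained a call, and 70 uncalled values changed sign. The low levels and the groups of 2 in spleen limit what can be detected.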
